A study of Mus musculus with 16 samples.

Results

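Complement is a cascade of plasma proteins that marks and lyses target membranes, and most of its soluble parts are secreted by the liver. Proteases of the C1 complex start the classical route, the cleavage of C3 is the step on which all routes converge, and C5 to C9 then assemble into a pore in the target membrane. Soluble regulators such as factor I cut the active fragments of C3 and so keep the cascade in check. The report describes 5 complement genes chosen by name, C1s1, C3, C8a, C9 and Cfi, of the 760 genes on the nCounter Fibrosis Panel, a hybridization assay that counts barcoded probe pairs bound to RNA. All 5 passed the filter on low values, as did 612 genes in all.

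Livers of 8 mice given EVT0185 at 100 mg/kg by gavage were compared with livers of 8 mice given the vehicle, Tween-20 (0.2%) in CMC (1.5%). The series describes EVT0185 as acting on acetyl-CoA metabolic enzymes, and treated livers are set against vehicle livers to find transcripts that differ. All 16 mice were male C57BL/6J animals housed at a thermoneutral 29 degrees C and fed a steatohepatitis diet with 40% of energy from fat, chiefly palm oil, 20% from fructose, and 0.02% cholesterol. The disease is thus induced by diet, and no group without it is part of the comparison. Each sample is labelled as a separate biological replicate; the sources used here do not give age or the length of dosing. In whole liver, fewer cells of a type and less RNA per cell cannot be told apart.

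Values are the authors' normalized counts, deposited on a log2 scale and printed here as normalized counts unless a log2 scale is named. The total count recovered per sample lay between 1462994 and 1850800, with 1632335 ± 122814 in EVT0185 and 1724054 ± 127413 in vehicle livers (SD, n = 8 each, exact permutation p = 0.162). The lowest count of any member in any liver was 749, so counting error was small beside the spread between animals. The median tested gene differed by log2 -0.10 between the groups, and of the genes past the threshold 34% were higher in EVT0185, against 53.3% after centring each sample on its median and 54.4% after quantile normalization. For that reason each member is also given under those scalings. Probes differ in efficiency, so levels are compared between groups and not between genes. Of 11 hepatocyte markers on the panel, 7 were lower in EVT0185 livers and 0 higher, against 21.6% of all tested genes lower. The summed level of the 11 ran from 160846 to 181642 in EVT0185 and from 218549 to 296554 in vehicle livers. The largest values weigh most in that sum. Apoa1 averaged 61623 in EVT0185 and 125765 in vehicle livers, and Cyp2e1, which was not called, 59000 and 63842. The lowest count of any of the 11 in any liver was 214.

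Upstream sequences of the members are shown as a description, and a link to the differences between the groups was not tested. RefSeq promoter entries of build GRCm38.p6 were found for 4 of the 5 members (C9, C8a, C1s1 and C3). Shown 5′ to 3′ on the strand of the gene are the bases within 250 of the listed transcript start that lie upstream of every transcript of the gene. Capitals mark matches on either strand. The letters searched were TTGCNNAA for C/EBP, CAAAGTCCA for HNF4, TTCNNNGAA for STAT and, as an HNF1 half-site, GTTAAT. These factors are known to drive genes in hepatocytes. The TATA box was searched as TATAAA. The patterns do not overlap in the stretches shown.
C9, chr15:6445096-6445345, plus strand: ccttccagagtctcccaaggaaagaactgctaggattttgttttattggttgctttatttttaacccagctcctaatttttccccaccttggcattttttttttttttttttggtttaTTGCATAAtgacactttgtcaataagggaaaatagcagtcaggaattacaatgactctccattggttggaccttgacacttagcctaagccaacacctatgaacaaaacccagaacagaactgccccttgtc
C8a, chr4:104876488-104876648, minus strand: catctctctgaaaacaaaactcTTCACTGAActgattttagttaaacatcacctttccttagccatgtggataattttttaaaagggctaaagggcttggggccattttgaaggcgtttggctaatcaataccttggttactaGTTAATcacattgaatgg
C1s1, chr6:124542393-124542609, minus strand: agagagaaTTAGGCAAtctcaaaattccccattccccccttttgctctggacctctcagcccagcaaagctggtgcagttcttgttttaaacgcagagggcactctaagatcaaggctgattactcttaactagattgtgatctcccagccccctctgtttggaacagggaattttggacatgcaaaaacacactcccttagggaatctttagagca
C3, chr17:57228137-57228386, minus strand: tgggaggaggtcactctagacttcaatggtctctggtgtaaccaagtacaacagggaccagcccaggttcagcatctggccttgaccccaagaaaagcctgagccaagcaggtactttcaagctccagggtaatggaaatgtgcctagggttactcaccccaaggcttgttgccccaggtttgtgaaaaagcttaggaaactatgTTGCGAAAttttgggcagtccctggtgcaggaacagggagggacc
C9, C1s1 and C3 each hold 1 C/EBP match, which 9.57% of 32841 mouse promoter windows of 250 bases hold. Another entry for C1s1, with its start at 124542321, is not shown, and its window holds no C/EBP match. C8a holds an HNF1 half-site and a STAT match, found in 6.43% and 7.02% of windows. The STAT pattern is its own reverse complement, so any match to it falls on both strands. The search covered the full 250 bases before each listed start, also for C8a and C1s1, of which 161 and 217 bases are shown. None of the windows searched for the 4 members holds the HNF4 letters or a TATA box, which 0.384% and 12.4% of windows hold. These are matches of letters and not binding sites.

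C9, C8a, C1s1 and Cfi fell in EVT0185 livers, by 2.97-fold, 2.21-fold, 1.9-fold and 1.46-fold, while C3 was not called. In limma across all genes, 21.6% of the 612 tested genes were lower in EVT0185 and 11.1% higher (32.7% in either direction), and 4 of the 5 members were lower. The members had been picked with earlier results of these data known, so that share describes them and is not independent evidence. C9 had the fifth largest decrease of all tested genes and C8a the tenth, with 4 and 9 genes below them.

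**Figure D1:**
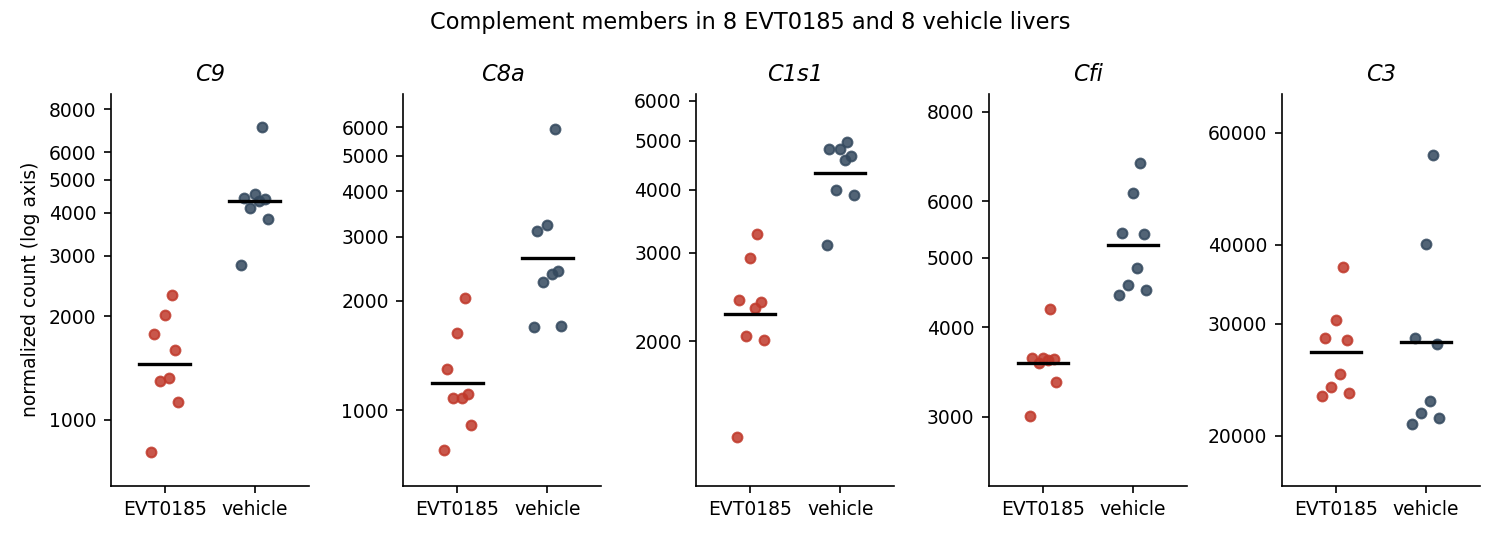
Normalized counts (log axis, a separate range for each gene) of the 5 members in 8 EVT0185 (red) and 8 vehicle (dark) livers, 1 point per animal, with the bar at the geometric mean. The groups do not overlap for C9 and Cfi, while for C3 the EVT0185 livers, at 23081 to 36845, lie inside the vehicle range of 20850 to 55383.

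C1s1 encodes the mouse C1s protease, the enzyme of the C1 complex that cleaves C4 and C2 at the start of the classical route. Its lowest, median and highest values were 1294, 2365 and 3261 in EVT0185 livers, against 3102, 4621 and 4961 in vehicle livers. The EVT0185 animal 6 alone reached into the vehicle range, just above vehicle animal 4. The log2 level of C1s1 fell by 0.93 ± 0.15 (SE; limma, adjusted p = 0.000137), and by 0.83 after either median centring or quantile normalization. C1s2 is a close paralogue, and no source used here says whether the probe tells the 2 transcripts apart.

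C3 is the central component, whose cleavage coats targets and releases the fragment C3a. Its values ran from 23081 through a median of 26678 to 36845 in EVT0185 livers, against 20850, 25267 and 55383 in vehicle livers. The EVT0185 livers lay inside the wider vehicle range. Vehicle animals 3 and 4, at 55383 and 40063, stood above every EVT0185 animal, and vehicle animals 1, 2, 7 and 8, at 20850 to 22642, stood below every one. The log2 difference was -0.05 with a 95% interval from -0.43 to 0.33 (limma adjusted p = 0.85). It was 0.046 after median centring, -0.013 on quantile-normalized values, 0.09 without vehicle animal 3 and 0.023 without vehicle animal 4, so its sign is not settled. A change of C3 of the size seen in C9, C8a, C1s1 or Cfi lay outside that interval.

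C8a and C9 belong to the terminal pore. C8a encodes the alpha chain of C8, which inserts into the membrane and starts the pore. Its values were 776, 1096 and 2039 (lowest, median and highest) in EVT0185 livers, against 1695, 2390 and 5936 in vehicle livers. EVT0185 animal 4 was the only treated animal within the vehicle range, and vehicle animal 3 was the highest by a wide margin. On a log2 scale C8a fell by 1.14 ± 0.23 (SE; limma, adjusted p = 0.0013). The fall was 1.05 under either scaling alternative and 0.97 without vehicle animal 3.

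C9 encodes the subunit that polymerizes to form the wall of the pore. Its lowest, median and highest values were 804, 1458 and 2302 in EVT0185 livers, against 2816, 4364 and 7120 in vehicle livers. All 8 EVT0185 animals lay below every vehicle animal, and 2.29% of tested genes were separated in that direction (4.58% in the other). The fall of C9 was 1.57 ± 0.20 in log2 units (SE; limma, adjusted p = 1.28e-05), with 1.47 on median-centred and 1.42 on quantile-normalized values.

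Cfi encodes factor I, the protease that cuts C3b and C4b with the help of cofactors. Its values were 3004, 3603 and 4245 (lowest, median and highest) in EVT0185 livers, against 4440, 5115 and 6783 in vehicle livers. These groups did not overlap either, and the difference was the smallest of the 4 fallen members. In log2 units Cfi fell by 0.55 ± 0.093 (SE; limma, adjusted p = 0.000203). Median centring gave a fall of 0.45 and quantile normalization 0.42. The SD between EVT0185 animals was 0.14 on the log2 scale for Cfi, against 0.49 for C9, 0.45 for C8a and 0.4 for C1s1.

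Ratios between members within a liver do not depend on any scaling factor of the sample, and they show that the members did not change to the same extent. Of the 10 pairs, 8 passed an exact permutation test with Benjamini-Hochberg adjustment over the pairs. Because the members were picked with earlier results of these data known, tests on their ratios describe them and are not independent evidence. Relative to C3, every other member was lower in EVT0185 livers. The log2 ratio of C9 to C3 was -4.22 ± 0.43 in EVT0185 and -2.70 ± 0.31 in vehicle livers (SD, n = 8 each), a difference of -1.52 (SE 0.19, exact permutation adjusted p = 0.000518), with no overlap of the groups. For C8a over C3 the difference was -1.09 (SE 0.16), again with all 8 EVT0185 animals below the vehicle range. C1s1 over C3 differed by -0.88 (SE 0.31, exact permutation adjusted p = 0.0259) and Cfi over C3 by -0.50 (SE 0.15, exact permutation adjusted p = 0.0171).

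C9 also fell relative to the other fallen members. Over Cfi it differed by -1.02 (SE 0.17, exact permutation adjusted p = 0.000518), without overlap. Over C1s1 it differed by -0.64 (SE 0.24, exact permutation adjusted p = 0.028), a call that ended without EVT0185 animal 7 (adjusted p = 0.0546). Over C8a the difference was -0.43 (SE 0.17, exact permutation adjusted p = 0.0305), and the call ended without EVT0185 animal 1, 2, 4 or 7 or vehicle animal 5 or 7 (adjusted p up to 0.0624). C8a over Cfi differed by -0.59 (SE 0.22, exact permutation adjusted p = 0.0259). The ratio of C1s1 to Cfi did not pass (-0.38, SE 0.19, exact permutation adjusted p = 0.0708) but did so without EVT0185 animal 6 or vehicle animal 3 or 4 (adjusted p from 0.0307). That of C8a to C1s1 differed by -0.21 (SE 0.32, exact permutation adjusted p = 0.524), and by -0.025 to -0.32 when 1 animal was left out.

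**Figure D2:**
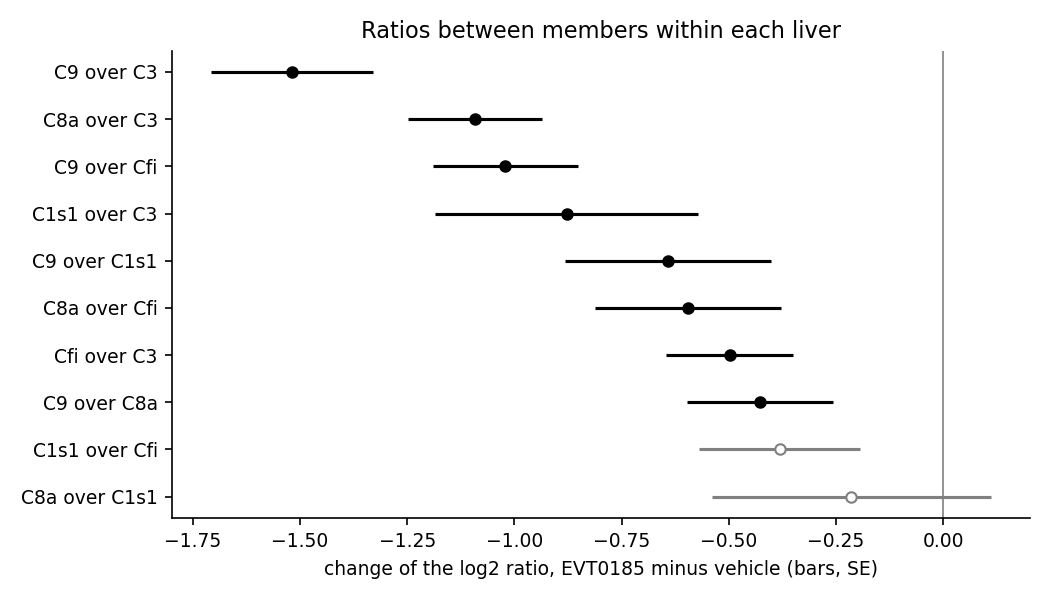
Change of the log2 ratio of 2 members measured in the same liver, EVT0185 minus vehicle, with bars of 1 SE over 8 animals a group; filled points passed the exact permutation test after adjustment over the 10 pairs. C9 over C3 moved most, at -1.52, and C8a over C1s1 least, at -0.21.

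Against 21.6% of all tested genes, 7 of 11 hepatocyte markers were lower in EVT0185 livers. Each member was therefore set against the mean of the 11 markers in the same animal. C9 fell relative to this mean by a further 0.87 on the log2 scale (SE 0.20, exact permutation adjusted p = 0.000777, 8 of 8 animals below the vehicle range). C3, whose own log2 difference was -0.05, was higher relative to this mean, by 0.65 (SE 0.20, exact permutation adjusted p = 0.0183), with 2 animals above the vehicle range. Relative to the mean, C8a differed by -0.44 (adjusted p = 0.159), C1s1 by -0.23 and Cfi by 0.15 (adjusted p = 0.206 each), none past the threshold of the exact permutation test. Members and markers were chosen with earlier results of these data known, so these tests describe them and are not independent evidence. Among the 7 markers that were lower are Pck1, Hsd11b1 and Apoa1, at log2 -1.90, -1.36 and -1.04. The markers not called were Cyp2e1, Cyp2c29, Cyp8b1 and Cyp7a1, at log2 -0.10, -0.16, -0.36 and -0.97. The mean of the 11 markers differed by -0.70 and their median gene by -0.44.

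**Figure D3:**
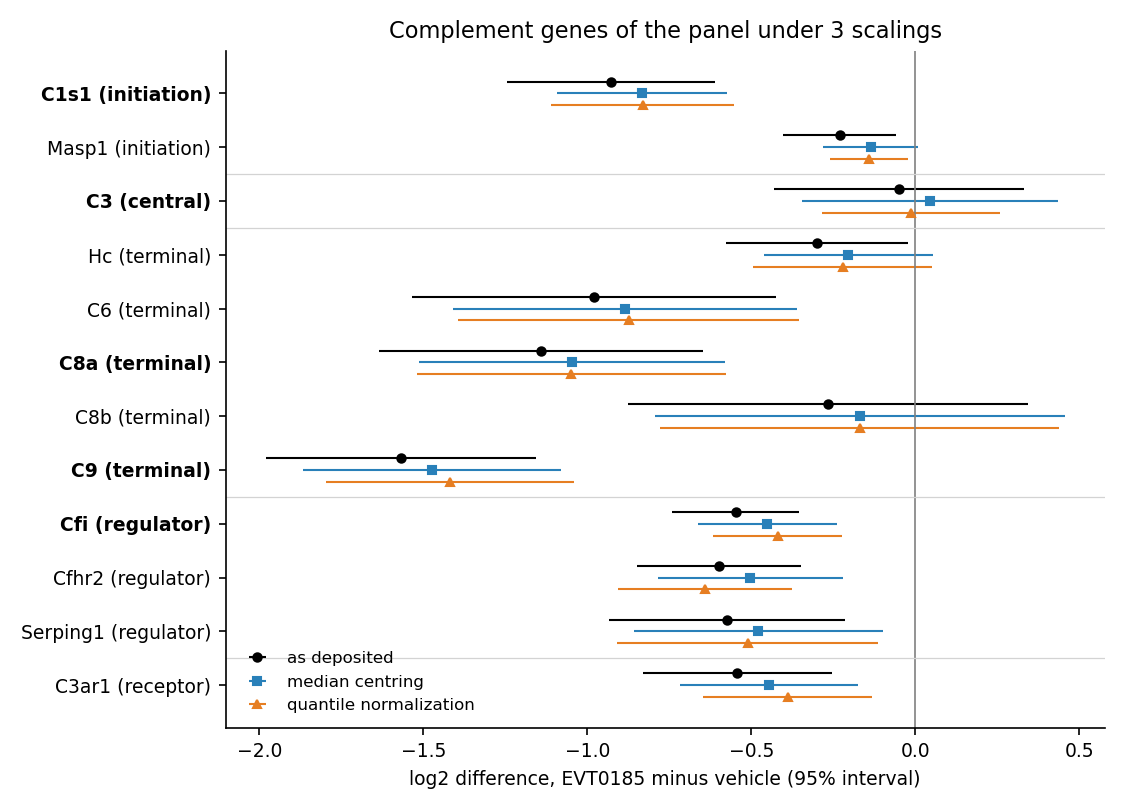
Log2 difference, EVT0185 minus vehicle, with 95% intervals from limma, for the complement genes named in the text, grouped by role (members in bold), on the deposited scale and after median centring or quantile normalization. C9, C8a, C1s1 and Cfi stay below 0 with their whole interval under all 3 scalings, and the interval of C3 spans 0 under each.

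The other complement genes of the panel fell in part. Of 57 names on a list of the pathway, 14 are among the genes of the table, all of them tested. Beside the members these are 9 genes, of which 6 fell and 0 rose, against 21.6% lower and 11.1% higher over all tested genes; the median log2 difference of the 14 was -0.56, against -0.10 over all tested genes. In the terminal pathway, C6, which joins C5b as the pore begins, fell by 0.98 (SE 0.26, limma adjusted p = 0.00841). Hc, the mouse C5 gene, differed by -0.30 (SE 0.13, limma adjusted p = 0.0906) and passed without vehicle animal 1 or 7 or EVT0185 animal 4 (adjusted p from 0.0427), and with sample weights or the replicate block. C8b, the beta chain of C8, differed by -0.27 (SE 0.29, limma adjusted p = 0.532), from -0.44 without vehicle animal 1 to -0.067 without vehicle animal 3.

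C8a and C8b encode chains of 1 protein, and their ratio was looked at after their values had been seen, so it is given without a test. The log2 ratio of C8a to C8b carries the efficiencies of both probes and is read between groups alone. It was 1.18 ± 0.28 in EVT0185 and 2.05 ± 0.46 in vehicle livers (SD, n = 8 each). The ranges overlapped, and 4 of 8 EVT0185 animals lay below the vehicle range.

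Among regulators, Cfhr2 fell by 0.60 ± 0.12 in log2 units (SE; limma, adjusted p = 0.000967). Serping1, the C1 inhibitor that shuts off C1s, fell by 0.57 (SE 0.17, limma adjusted p = 0.0154), a call that ended after median centring (adjusted p = 0.0546). Masp1, a protease of the lectin route, fell by 0.23 (SE 0.082, limma adjusted p = 0.039). It was no longer called with samples centred on their median (adjusted p = 0.149), after quantile normalization, with the replicate block, and without vehicle animal 2, 3, 5 or 8 or EVT0185 animal 1, 2, 3, 5, 6 or 8 (adjusted p up to 0.0769).

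C3ar1, the receptor for C3a carried by myeloid cells, fell by 0.54 ± 0.14 in log2 units (SE; limma, adjusted p = 0.00562), with values of 72.7 to 143 in EVT0185 and 103 to 165 in vehicle livers. Of 6 macrophage markers on the panel, Cd68 and Ccr2 were lower and 0 higher, 2 of 6 against the 21.6% of all tested genes that were lower. The markers not called were Marco and Cd163, at log2 0.51 and 0.29, and Csf1r and Cd14, at -0.14 each. The summed level of the 6 ran from 982 to 1331 in EVT0185 and from 808 to 2776 in vehicle livers. The part of these cells in the C3ar1 difference was not tested.

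Between animals of a group the members did not all vary together. Vehicle animal 3 had the highest value of its group for 10 of the 14 complement genes and vehicle animal 1 the lowest for 10. Among EVT0185 animals, animal 4 was highest for 9 genes and animal 2 lowest for 6. Of 20 correlations (10 pairs of members in each group, n = 8), 0 passed adjustment by exact permutation (smallest adjusted p 0.0913 for Pearson and 0.183 for Spearman), and 7 had an unadjusted Pearson p under 0.05. For C8a and C3, r was 0.76 in EVT0185 (rho 0.52, exact permutation p = 0.0302 and 0.197) and 0.84 in vehicle livers (rho 0.76, exact permutation p = 0.00965 and 0.0368). Without the 2 animals farthest from the median of C8a, which also narrows the range of C8a, r was 0.026 in EVT0185 and 0.47 in vehicle livers (n = 6 each). For C1s1 and C3, r was -0.45 in EVT0185 (rho -0.76, exact permutation p = 0.257 and 0.0368) and -0.61 in vehicle livers (rho -0.38, exact permutation p = 0.0967 and 0.36), none past adjustment. Without the 2 animals farthest from the median of C1s1, r was -0.54 in EVT0185 and 0.31 in vehicle livers.

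**Figure D4:**
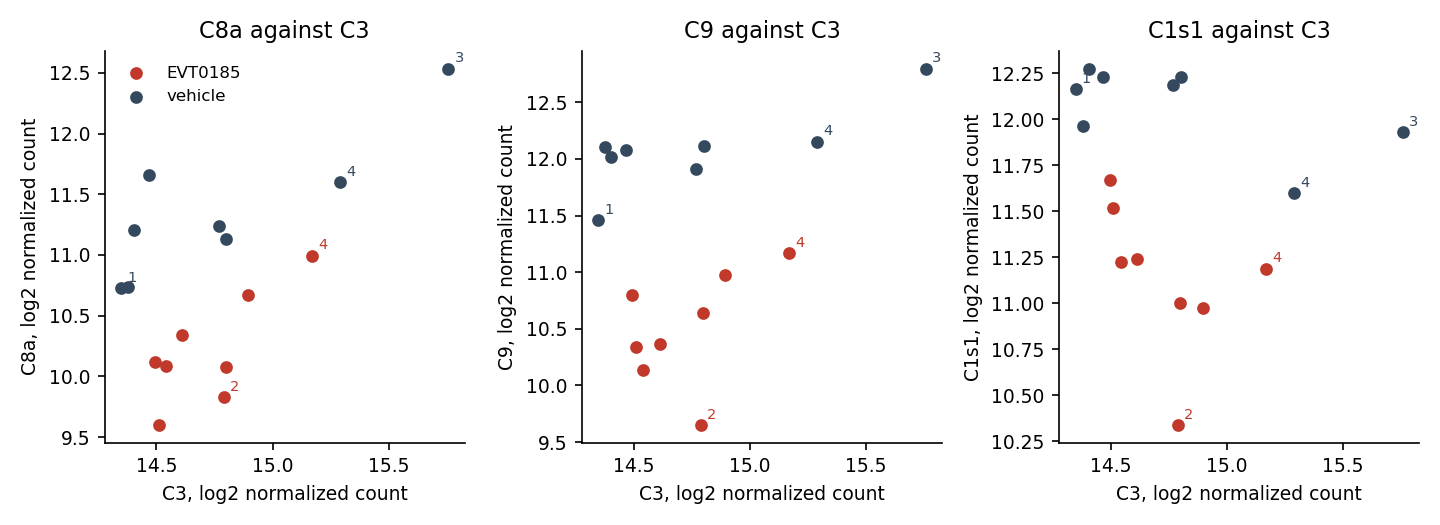
C8a, C9 and C1s1 against C3, all as log2 normalized counts, 1 point per animal, in EVT0185 (red) and vehicle (dark) livers; numbers mark the animals named in the text. The groups overlap along the C3 axis, while the highest EVT0185 values of C9 (2302) stay under the lowest vehicle value (2816); vehicle animal 3 is the highest for C3, C8a and C9.

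The genes whose pattern between animals was most like each member were named by Pearson r of the deviations from the group mean over 16 animals, as a description. For C9 they were Isg15 (r = 0.91), Ifi27 (r = 0.86), both interferon-induced genes, and the kinase Lyn (r = 0.85). C8a was most like Hc (r = 0.92), Ifi27 and Serping1, and C3 was most like Akt1 (r = 0.92), Serping1 (r = 0.91) and the syndecan Sdc3. Cfi was most like Cfhr2 (r = 0.84), Fgb and Lyn. C1s1 was nearest to other genes, namely Pdha1 (r = 0.88), Mfap3 and Pcx, and its own r with C9, C8a, Cfi and C3 was 0.22, -0.12, 0.0034 and -0.44. After median centring these r of C1s1 were 0.034, -0.43, -0.34 and -0.73. Mfap3 then ranked 1, Pdha1 5 and Pcx 7 among the genes most like C1s1. Among the other members r lay between 0.59 and 0.80, between 0.49 and 0.77 after median centring, and between 0.38 and 0.68 without vehicle animal 3. C8a with Cfi moved most, with r of 0.61 over all animals and 0.38 without that animal. For the genes most alike, r without it was 0.89 for C9 with Isg15, 0.86 for C8a with Hc and 0.82 for C3 with Akt1.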

How the data were processed

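Per the labels' protocols, RNA of whole liver was purified with the RNeasy kit and bound to reporter and capture probes of the panel. The deposited log2 values were made by the authors in nSolver 4.0 with global geometric mean scaling, as stated in the series' design text. In every sample 2 to the power of the value was a whole multiple of 1 step, within 0.1 of a count, which gave the recovered counts. The sources used here do not say how background was handled.

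Genes averaging 20 or more on the linear scale (612) entered limma 3.58.1 in R 4.3.3 (lmFit, then eBayes with trend) with all 16 samples, two-sided, with Benjamini-Hochberg adjustment over all tested genes and a threshold of 0.05. SE and intervals are limma's for single genes. Ratios were compared by two-sided exact permutation tests over all 12870 assignments, whose smallest p is 0.000155, with adjustment over 10 pairs or over 5 members, and their SE is that of a difference of 2 means. Code was tested on simulated data. Alternatives were median centring, quantile normalization, other floors, a pseudocount, no variance trend, sample weights, a permutation test per gene, a replicate block and leaving out each animal. Named genes are the members, the pathway list, the hepatocyte markers, regulators fixed by name, and the 3 genes most like each member. Some genes counted in the pathway list are not reported here. Members and lists were chosen with earlier results of these data known. Counts of any 2 animals of a group differed by more than sampling noise (chi-square over degrees of freedom at least 11.6). The replicate numbers of the 2 groups were not treated as pairs.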

Additional observations from a re-analysis of the deposited data

How the results depend on the processing

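C9, C8a, C1s1 and Cfi kept their direction and stayed past the threshold in all 9 other settings and in each of the 16 fits that left out 1 animal. Without 1 animal their log2 differences ran from -1.66 to -1.45 for C9, from -1.25 to -0.973 for C8a, from -1.0 to -0.813 for C1s1 and from -0.584 to -0.493 for Cfi. C3 changed sign after median centring (0.0456) and ran from -0.113 to 0.0899 when 1 animal was left out; the cause was not tested. Ratios ran from -0.493 to -0.335 for C9 over C8a, from -0.742 to -0.518 for C9 over C1s1 and from -0.468 to -0.301 for C1s1 over Cfi. Of the 20 correlations 0 passed as deposited and 1 after median centring, that of Cfi with C3 in EVT0185 livers (r = 0.86, exact permutation adjusted p = 0.0203). Of the 15 genes named as most alike, 9 stayed among the 3 most alike after median centring. For the markers, their median in place of their mean, chosen after seeing the data, changed no call. The number of complement genes called was 10 of 14, beside 200 of all 612 tested genes. It was 8 beside 180 after median centring, 9 beside 195 after quantile normalization, and 9 to 11 beside 170 to 236 without 1 animal. Of all tested genes, 132 were lower as deposited, 84 after median centring and 89 after quantile normalization. Same-numbered animals of the groups correlated at -0.14 to 0.46, over 0.1 for 5 of 8 numbers, and 3 of 16 animals correlated best with their own number. With the replicate block, 190 genes and 10 complement genes were called, and C9 had an adjusted p of 9.18e-06.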

Other observations

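Genes that regulate hepatic complement or the acute-phase response were looked at by a list of 27 names, of which 14 were tested. Of these, 6 fell and 0 rose in EVT0185 livers, against 21.6% of all tested genes lower. Crp, a pentraxin, ran from 1617 to 2391 in EVT0185 livers, against 2831 to 6587 in vehicle livers, without overlap (log2 -0.90, SE 0.13, limma adjusted p = 5.14e-05). Apcs, the related pentraxin serum amyloid P, had a log2 difference of -0.041 ± 0.21 (SE; limma, adjusted p = 0.898), against 0.055 on median-centred and 0.077 on quantile-normalized values.

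Both subunits of the interleukin-1 receptor on the panel were lower. Il1r1, the binding chain, had 119 to 161 in EVT0185 and 162 to 523 in vehicle livers (log2 -0.76, SE 0.22, limma adjusted p = 0.0128), and Il1rap, its accessory chain, fell by 0.79 ± 0.12 in log2 units (SE; limma, adjusted p = 6.19e-05). Il1b itself differed by -0.095 (limma adjusted p = 0.703), and by 0.001 after median centring and 0.14 after quantile normalization. The transcription factor Cebpa fell by 0.36 (SE 0.092, limma adjusted p = 0.0062), a call that ended after median centring (adjusted p = 0.0613). Stat3 fell by 0.54 (SE 0.18, limma adjusted p = 0.0281), and its call ended after median centring and without EVT0185 animal 2 (adjusted p = 0.0555 each). Il6, at a mean of 24.5 in EVT0185 and 36.2 in vehicle livers, was near the floor of 20. It differed by -0.51 (SE 0.19, limma adjusted p = 0.0427), a call kept in 3 of 16 fits without 1 animal, those without vehicle animal 1 or 4 or EVT0185 animal 5, and lost after median centring, after quantile normalization, with no floor and by the permutation test (adjusted p up to 0.189).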
